A study of Mus musculus with 28 samples.

Results

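The comparison described here is that of unstimulated Th17 cells recovered from mice 15 days and 5 days after transfer, 4 arrays against 3, which are 7 of the 28 arrays of the series. The arrays were chosen by their titles alone: Th17, ex vivo, day 15 or day 5, without the 2 h stimulation. The cells were CD4+ T cells of BwTRP1 Rag1-/- mice, which carry a transgenic T cell receptor for the melanocyte protein TRP1, lack a working Rag1 gene and bear the Thy1.2 allele. They were cultured for 7 days under Th17 conditions (IL-1, IL-6, IL-21, TGFβ2 and antibodies against IL-2, IL-4 and IFN-γ, with IL-2 and IL-23 later) and injected into B6.PL mice, which bear Thy1.1 and had received 5 Gy of irradiation. Spleens and inguinal lymph nodes were pooled, CD4+ cells were enriched and Thy1.2+ cells were sorted. Each sorted sample was divided, and one part was restimulated for 2 h through CD3 and CD28. Comparisons drawn on below are those of the restimulated Th17 parts (4 arrays at day 15, 3 at day 5) and of unstimulated Th1 cells transferred in the same way (2 arrays at day 15, 3 at day 5). Unstimulated Th17 cells at the end of culture (day 0) were on 1 array. The labels do not say that arrays of a group came from separate mice, so the p-values measure the spread between these samples, which may be technical.

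Th17 cells are CD4+ T cells defined by secretion of IL-17A and IL-17F, under the influence of IL-6, TGFβ, IL-21 and IL-23. They are known to change readily after transfer, when many begin to make IFN-γ and lose IL-17. After a T cell response contracts, the cells that remain divide less, lower the receptors and granule proteins of the acute phase, and regain the receptors that let them recirculate.

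Values are log2 RMA signals of 1 probe set per gene, so a difference of 1 is a doubling, and 19938 genes were tested. Arrays of a group correlated at 0.993 to 0.997 at day 5 and at 0.990 to 0.997 at day 15. None of 18 T cell identity genes passed the test, and 3 had an unadjusted p under 0.05, against 5028 of all 19938 genes. The mean of the 18 lay between 11.90 and 11.93 at day 5 and between 11.75 and 11.94 at day 15. Thy1 read 13.14, 13.09 and 13.15 at day 5 and 13.18, 13.11, 13.02 and 13.10 at day 15. The defining genes of B cells, NK cells and CD8 T cells stood at list means of at most 7.56 on these arrays, and of these 20, 8 and 2 genes only Tnfrsf13c passed the test. Erythroid and granulocyte genes did differ between the days and are set apart below. In pooled sorted cells, a change in the share of a cell type and a change of RNA per cell cannot be told apart.

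Of the genes tested, 1923 (9.64%) differed between the days at an adjusted p under 0.05, by limma's moderated test with Benjamini-Hochberg adjustment. At day 15, 871 were higher (4.37%) and 1052 lower (5.28%), and 202 (1.01%) differed at least 2-fold. The shares of 4.37% higher and 5.28% lower are the background to each list count given below for this comparison. The 7 arrays separated completely for 4626 genes (23.2%), called or not. Of the 114 genes at least 2-fold higher at day 15, 46 (40.4%) belonged to lists of erythroid, granulocyte or other cells. These are called host lists here, and the origin of their transcripts was not tested. A further 37 followed the erythroid list mean over the 12 day 15 arrays or the granulocyte list mean over the 12 day 5 arrays (r of at least 0.7 after group means were taken off), and 31 were left. Of the 88 at least 2-fold lower, 13 belonged to such lists, 18 followed one of the means, and 57 were left. The count fell to 1082 without the first day 5 array and to 1272 without the third day 15 array.

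Among the genes left after setting host transcripts apart, Dapl1 rose most. Dapl1, named for its likeness to a death-associated protein and expressed in resting T cells, read 7.92, 7.36 and 7.99 at day 5 (probe set 10472235) and 11.66, 11.58, 11.16 and 11.51 at day 15. It was 13.2-fold higher on average at day 15 (log2 change 3.72 ± 0.22 SE, adjusted p = 9.09e-11). On the day 0 array it read 5.39. Its change lay between 3.52 and 3.84 when single arrays were left out, and it was the only one of the 15 largest rises that still passed with the erythroid list mean in the model. That mean itself did not overlap between the days (7.30 to 7.43 at day 5, 8.33 to 8.75 at day 15). Day is thus hard to separate from that covariate, so a call lost with it, here and below, decides nothing about a gene.

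Several receptors were higher at day 15 as well. Of 17 genes of lymph node homing and egress, 4 were called higher and 1 lower, against 4.37% and 5.28% of all genes. Their median change was 0.09. Klrg1, an inhibitory lectin-like receptor of effector cells, read 7.84, 8.06 and 7.48 at day 5 and 9.52, 9.16, 9.15 and 9.34 at day 15. It was 2.83-fold higher on average at day 15 (adjusted p = 3.66e-07). Klrk1, which encodes the activating receptor NKG2D, read 6.20, 6.22 and 5.78 and then 7.78, 7.70, 7.23 and 7.94, a 3.01-fold rise (adjusted p = 2.39e-08). S1pr5, a sphingosine-1-phosphate receptor of egressing effector cells, read 7.26, 8.52 and 7.90 and then 9.79, 9.04, 9.04 and 8.90 (log2 change 1.30, adjusted p = 0.0117). Without single arrays the change of S1pr5 ran from 0.99 to 1.62, and at its lowest it no longer passed. Zeb2, a transcription factor of terminal effector cells, rose by 0.86 (adjusted p = 0.0084), and Cx3cr1, the fractalkine receptor, by 0.74 (adjusted p = 0.023). Both calls were lost without the first day 5 array, where the changes were 0.53 and 0.46. In all, the call of Zeb2 was lost in 5 of 21 other settings and that of Cx3cr1 in 9. Ccr7, which guides T cells into lymph nodes, read 11.04, 10.62 and 11.24 at day 5 and 11.70, 11.69, 11.43 and 11.62 at day 15 (log2 change 0.64, adjusted p = 0.0396). The days did not overlap for Ccr7, though its call was lost in 11 of 21 other settings.

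Other genes among the 15 largest rises were Vipr1, Ptgdr2, Hrh4, Edaradd, Qpct, Igfbp4 and Prxl2a. Host list genes, genes following a host list mean and unnamed clones were left out of that ranking. Vipr1, the receptor for vasoactive intestinal peptide on resting T cells, rose 3.79-fold (adjusted p = 5.2e-10), from 7.48, 7.25 and 7.46 to 9.41, 9.32, 9.11 and 9.45. Ptgdr2, the prostaglandin D2 receptor CRTH2, rose 3.00-fold, and Hrh4, a histamine receptor, rose 3.46-fold. Edaradd, an adaptor of a TNF receptor family member, rose 3.16-fold, and Qpct, glutaminyl-peptide cyclotransferase, 2.93-fold. Igfbp4, which binds insulin-like growth factors and marks naive and resting T cells, rose 2.80-fold, and Prxl2a, a redox protein, 2.39-fold. Adjusted p-values of these 6 genes lay between 9.09e-07 and 0.000443. That the days did not overlap was part of the rule that chose the 15 largest rises and the 15 largest falls, and so is no result for them. Of the 15 rises, 14 passed whichever of the 7 arrays was left out.

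**Figure D1:**
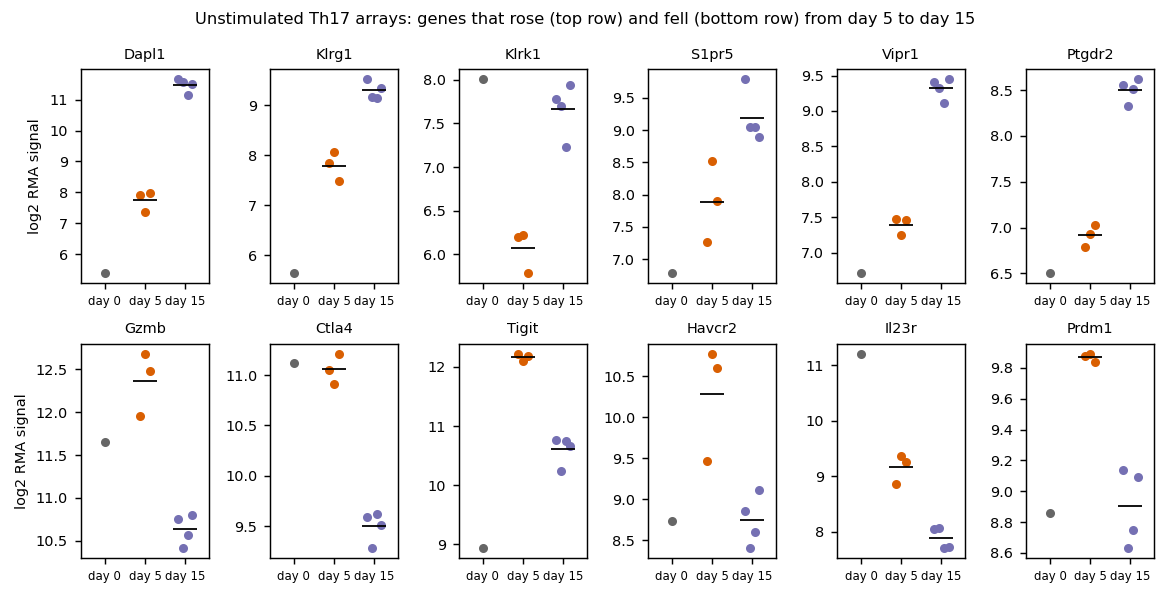
Log2 RMA signal of 12 genes on the unstimulated Th17 arrays at day 0 (1 array), day 5 (3) and day 15 (4), with points for arrays and lines for group means. The 6 genes of the top row rose and the 6 of the bottom row fell between days 5 and 15. Dapl1 moved from 7.36 to 7.99 up to 11.16 to 11.66.

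Adgrg1, an adhesion G protein-coupled receptor of cytotoxic lymphocytes and of haematopoietic progenitors, read 6.82, 6.93 and 7.14 at day 5 and 9.23, 9.15, 9.09 and 9.11 at day 15, a 4.55-fold rise (adjusted p = 2.99e-11). Paqr9, a membrane progestin receptor relative, rose 2.54-fold and Sphk1, sphingosine kinase, 2.48-fold. In the restimulated parts of these cells Paqr9 changed by 0.08 and Sphk1 by 0.03, neither of which passed, and Adgrg1 by 1.01. The erythroid list mean at day 15 was 7.76 to 8.01 in the restimulated parts and 8.33 to 8.75 in the unstimulated ones. With the erythroid list mean in the model, the log2 changes of Paqr9 and Sphk1 were -0.07 and -0.24. Those of Adgrg1 and Prxl2a were 1.18 and 0.07, and 13 of the 15 largest rises kept their sign. The part of erythroid RNA in these rises was not tested.

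The 15 largest falls, ranked without host list genes, genes following a host list mean and unnamed clones, began with Serpinb9b. Serpinb9b, an inhibitor of granzyme-type proteases, read 9.35, 8.90 and 8.87 at day 5 and 6.43, 6.44, 6.93 and 6.67 at day 15, and so was 5.38-fold lower on average (log2 change -2.43 ± 0.16 SE, adjusted p = 2.15e-10). Serpinb6b, of the same family, fell 3.82-fold. Sema7a, a membrane semaphorin of activated T cells, was 4.38-fold lower, and Zbtb32, a zinc finger repressor induced by activation, was 3.98-fold lower. Apobec2, a member of the cytidine deaminase family, read 9.86, 10.37 and 9.95 and then 8.32, 8.09, 7.84 and 8.12, a 3.91-fold difference (adjusted p = 1.73e-09). Bcat1, which breaks down branched-chain amino acids, and Gstt1, a glutathione transferase, were 3.05-fold and 3.13-fold lower. Atp6v0d2, a subunit of the vacuolar proton pump, was 3.09-fold lower and had read 11.66 on the day 0 array. Of the 15 largest falls, all but Ccl3 and Il21 passed in each omission of an array, while with the erythroid list mean in the model 2 of them, Apobec2 and Serpinb6b, still passed.

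Granule genes and killer cell receptors went different ways. Of 25 on this list, 8 were called lower and 3 higher, with a median change of -0.13 against 0.05 for all genes. Gzmb, which encodes the protease granzyme B (probe set 10420308), read 11.95, 12.68 and 12.48 at day 5 and 10.75, 10.41, 10.57 and 10.80 at day 15. It was 3.33-fold lower (adjusted p = 4.54e-07). Gzma, granzyme A, fell by 0.80 (adjusted p = 0.00201), and Gzmk and Prf1, perforin, were also called lower. The 3 that rose, Klrg1, Klrk1 and Klrc2, all encode lectin-like receptors, and the call of Klrc2 (0.52) was lost in 12 of 21 settings. With the erythroid list mean in the model 1 gene of the list was called lower and 0 higher. The chemokine Ccl3 was 3.55-fold lower (adjusted p = 0.0172), while Ccl5 rose by 0.49 (adjusted p = 0.00502). Ifng read 10.88, 12.29 and 12.09 and then 11.46, 11.06, 10.73 and 11.23, overlapping between the days, and did not pass (adjusted p = 0.164).

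Inhibitory receptors, which dampen T cell signalling, were called lower in 7 of 14 cases and higher in none, with a median change of -0.57. With the erythroid list mean in the model 0 of the 14 were called lower, and with both host list means 1, at medians of -1.14 and -1.15. Ctla4, which competes with CD28 for its ligands, read 11.05, 10.91 and 11.21 at day 5 and 9.59, 9.28, 9.62 and 9.51 at day 15 (log2 change -1.56, adjusted p = 2.81e-08). Tigit, which binds nectin-family ligands, read 12.22, 12.10 and 12.19 and then 10.77, 10.24, 10.75 and 10.67 (log2 change -1.56, adjusted p = 7.99e-09). Both pairs of groups were far apart relative to their spread. Havcr2, which encodes TIM-3, was 2.90-fold lower, Cd160 2.51-fold lower and Lag3, which binds MHC class II, 2.37-fold lower, with adjusted p-values of 0.00342, 0.000193 and 1.64e-05. Lag3 was named after its values were seen. Pdcd1, which encodes PD-1, read 10.11, 10.05 and 10.23 and then 9.42, 9.39, 9.50 and 9.64. These values did not overlap, but the change of -0.64 missed the threshold (adjusted p = 0.0515). The co-stimulatory receptor Tnfrsf9, known as 4-1BB, was 2.86-fold lower (adjusted p = 0.00148).

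The Th17 genes did not change in 1 direction. Of 19 on the list, 4 were called lower and 4 higher, with a median of -0.09. The higher count was 1 without the first day 15 array and 2 without the first or the second day 5 array or the second day 15 array. The lower count was 2 without the second or the third day 5 array or the second day 15 array, and with the erythroid mean in the model both counts were 0. Il23r, the receptor subunit for IL-23 (probe set 10545154), read 8.86, 9.36 and 9.25 at day 5 and 8.05, 8.06, 7.70 and 7.73 at day 15, having read 11.20 at day 0. Its 2.41-fold fall left no overlap between the days (adjusted p = 7.26e-06). Ccr6, the chemokine receptor typical of Th17 cells, fell by 0.98 (adjusted p = 0.00372), and within the day 5 groups its values followed the granulocyte list mean. Il21, the cytokine of Th17 and follicular helper cells, was 3.36-fold lower (adjusted p = 0.0338), and Batf, a factor needed for Th17 differentiation, fell by 0.39 (adjusted p = 0.0206). The call of Il21 was lost in 7 of 21 other settings, and that of Batf in 6. The 4 that rose were Cxcr6, the receptor for CXCL16, by 0.56 (adjusted p = 0.023), and Tmem176a, Tmem176b and Abcb1a. For Cxcr6 the call was lost in 7 settings, and with the erythroid mean in the model its change was -0.27.

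The cytokines that define the lineage were already low in resting cells at day 5. Il17a read 11.86 at day 0, then 6.79, 6.71 and 7.15 at day 5 and 6.44, 6.45, 6.75 and 6.39 at day 15. Il17f read 6.80, 6.89 and 7.11 at day 5 and then 6.58, 6.51, 6.87 and 6.48. For both genes the arrays of days 5 and 15 overlapped, and neither change passed (adjusted p = 0.419 and 0.206). Rora, a nuclear receptor that supports Th17 identity, changed by 0.06 (95% confidence interval -0.14 to 0.26). Tbx21, the Th1 factor T-bet, read 6.81 at day 0 and 11.04 to 11.67 on the 7 later arrays (log2 change -0.14, adjusted p = 0.629).

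Among genes of regulatory and follicular helper T cells, Foxp3, the regulatory T cell factor, read 11.05, 10.06 and 10.68 at day 5 and 9.59, 9.61, 9.83 and 9.65 at day 15 (log2 change -0.93, adjusted p = 0.0213). Its days did not overlap, but the call was lost in 7 of 21 settings, its values within the day 5 groups followed the granulocyte list mean, and with the erythroid mean in the model its change was 0.81. Il2ra, the high-affinity IL-2 receptor chain, fell by 0.90 (adjusted p = 0.00378), and Il2rb, the shared chain of the IL-2 and IL-15 receptors, by 0.30 (adjusted p = 0.0186). Nrp1 was called higher. The call of Il2rb was lost in 9 of 21 settings and that of Nrp1 in 8. Of 12 follicular helper genes, 5 were called lower (Sh2d1a, Icos, Cd200, Btla and Tox2) and 2 higher (Il6ra and Il6st). The lower count was 3 without the first day 5 array and 2 without the third, and both counts were 0 with the erythroid mean in the model. The call of Btla was lost in 9 of 21 settings. Il6ra and Il6st, which encode the chains of the IL-6 receptor, rose by 0.81 and 0.66 (adjusted p = 0.00319 and 0.00515). Tgfbr2, the TGFβ receptor, rose by 0.30 with values of 11.32, 11.36 and 11.40 and then 11.64, 11.68, 11.68 and 11.65 (adjusted p = 0.00884).

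Transcription factors of memory and stem-like T cells showed no called change: 0 of 21 passed, with a median of -0.04. Of the 21, 2 had an unadjusted p under 0.05, against 5028 of all 19938 genes. Lef1 read 10.94 to 11.32 at day 5 and 10.95 to 11.05 at day 15, Foxo1 11.17 to 11.28 and 11.29 to 11.44, and Id3 7.71 to 8.89 and 7.90 to 8.06. Of 13 effector factors, 3 were called lower (Prdm1, Batf and Hif1a) and 1 higher (Zeb2), with a median of -0.34. Prdm1, which encodes Blimp-1, read 9.88, 9.89 and 9.84 at day 5 and 9.14, 8.63, 8.75 and 9.09 at day 15. It was 1.96-fold lower with no overlap (adjusted p = 3.09e-05). The receptors Il7r, S1pr1, Cd44 and Cxcr3 changed by 0.16, 0.06, 0.12 and -0.23, none of which passed, and neither did Klf2 (-0.20), Bcl2 (0.32) or Id2 (0.15). The early activation antigen Cd69 fell by 0.86 (adjusted p = 0.00123).

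Genes of cell division were lower at day 15. Of 87 genes of mitosis and the spindle, 76 were called lower and none higher, all 87 changes were negative, and the median was -0.59 against 0.05 for all genes. The list mean was 10.25, 10.12 and 10.01 at day 5 and 9.66, 9.52, 9.26 and 9.70 at day 15, with the third late array lowest. Depdc1a, needed for spindle function, read 9.61, 9.61 and 9.16 and then 8.47, 8.07, 7.67 and 8.69, a 2.36-fold difference (adjusted p = 0.000337). Ska3, of the kinetochore, was 2.04-fold lower, Cenph, of the centromere, 1.99-fold lower, and Sgo1, which protects cohesion between sister chromatids, 1.92-fold lower. Mki67, the proliferation antigen Ki-67, read 12.27, 12.41 and 12.21 and then 12.03, 12.06, 11.85 and 12.18, a change of -0.27 that missed the threshold (adjusted p = 0.0864). The list was not at the floor of the array at day 15, since the mean stayed above 9 on every array. Of the 76 called genes, 61 followed the erythroid list mean across the 12 day 15 arrays (r of at least 0.7, after group means were taken off). The erythroid mean was higher at day 15 than at day 5, and the mitosis genes were lower. Depdc1a, Ska3, Cenph and Sgo1 kept their calls in each of 21 other settings, the erythroid mean as a covariate among them. The part of erythroid RNA in the mitosis values was not tested.

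DNA replication genes changed in the same direction and by less. Of 62, 31 were called lower and none higher, with a median of -0.35. Orc1, of the origin recognition complex, Ccne2, cyclin E2, and Rpa3, of the single-strand binding complex, each fell by 0.67, and Hells, a chromatin remodeller, by 0.66. The count was 16 without the first day 5 array and 19 without the third day 15 array. With the erythroid mean in the model Orc1, Rpa3 and Hells kept their calls, while Ccne2 (-1.81) lost its call.

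Promoters of the 4 mitosis genes with the largest falls are shown because the list moved together and because genes of this phase are known to share CCAAT boxes and the cell cycle homology element, here searched as TTTGAA. Sequences are from RefSeq (GRCm38.p6), run from 250 bases before to 50 after the gene's start, and are given 5′ to 3′ on the gene's strand, with capitals marking either word on either strand. Depdc1a lies at chr3:159495183-159495482 (+), Ska3 at chr14:57826114-57826413 (-), Cenph at chr13:100775850-100776149 (-) and Sgo1 at chr17:53689266-53689565 (-).
Depdc1a: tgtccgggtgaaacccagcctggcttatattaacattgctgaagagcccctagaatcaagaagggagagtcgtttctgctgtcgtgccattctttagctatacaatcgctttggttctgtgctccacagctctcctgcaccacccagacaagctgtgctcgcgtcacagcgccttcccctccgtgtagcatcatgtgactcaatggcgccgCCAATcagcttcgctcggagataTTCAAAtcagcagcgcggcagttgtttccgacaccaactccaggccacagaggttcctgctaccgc
Ska3: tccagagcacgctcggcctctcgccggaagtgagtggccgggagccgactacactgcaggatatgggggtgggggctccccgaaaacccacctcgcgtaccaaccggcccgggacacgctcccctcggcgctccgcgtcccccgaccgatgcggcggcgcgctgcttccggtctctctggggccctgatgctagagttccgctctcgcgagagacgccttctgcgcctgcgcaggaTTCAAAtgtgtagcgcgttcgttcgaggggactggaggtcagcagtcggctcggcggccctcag
Cenph: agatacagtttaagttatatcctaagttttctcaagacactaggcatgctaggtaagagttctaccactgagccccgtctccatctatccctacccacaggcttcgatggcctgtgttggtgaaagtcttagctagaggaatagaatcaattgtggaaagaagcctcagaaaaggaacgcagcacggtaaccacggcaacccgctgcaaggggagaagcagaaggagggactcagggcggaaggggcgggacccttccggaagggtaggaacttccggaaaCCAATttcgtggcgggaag
Sgo1: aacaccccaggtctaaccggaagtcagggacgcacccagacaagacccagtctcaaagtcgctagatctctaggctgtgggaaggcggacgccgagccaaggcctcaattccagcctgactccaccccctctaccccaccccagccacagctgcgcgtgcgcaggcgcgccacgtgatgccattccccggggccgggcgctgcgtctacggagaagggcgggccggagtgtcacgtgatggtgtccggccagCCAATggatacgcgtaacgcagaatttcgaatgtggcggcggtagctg
CCAAT was found in Depdc1a, Cenph and Sgo1, and TTTGAA in Depdc1a and Ska3. Of 78 promoters of 72 matched mitosis genes, 55 (70.5%) held CCAAT and 51 (65.4%) held TTTGAA, against 37.4% and 17.9% of all 32851 promoters. A match is a description of the sequence and not a site shown to be bound.

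Genes induced by T cell receptor signalling were lower at rest on day 15, 12 of 34 called lower and none higher, with a median of -0.36. Dusp4, a phosphatase that ends MAP kinase signalling, read 8.47, 8.84 and 8.98 and then 7.29, 7.11, 7.27 and 7.39, and so was 2.83-fold lower (adjusted p = 0.000504). Nr4a2, an orphan nuclear receptor, was 2.76-fold lower, and Rgs1, a regulator of G protein signalling, 2.40-fold lower. Fos read 9.79, 9.23 and 9.96 and then 9.52, 8.64, 7.68 and 7.51, and the heat shock gene Hspa1a 10.00, 10.50 and 11.70 and then 11.08, 8.65, 7.60 and 7.86. In both, the first day 15 array was as high as the day 5 arrays. Their adjusted p-values were 0.043 and 0.0285, and the calls were lost in 13 and 8 of 21 settings. The count for the list was 5 without the third day 5 array and 4 with the erythroid mean in the model.

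Supply genes of growing cells showed smaller, one-sided changes. Of 28 genes of amino acid supply and the Atf4 response, 7 were called lower and none higher. The count was 3 without the second day 5 array, 4 without the third day 5 array or the third day 15 array, and 1 with the erythroid mean in the model. The 7 included Psat1 and Shmt2, of serine and one-carbon metabolism, which fell by 0.66 and 0.70 (adjusted p = 0.000293 and 0.00151). Of 50 respiratory chain genes, 15 were called lower and none higher, with a median of -0.19, and Ndufa1, of complex I, fell by 0.57 (adjusted p = 0.00221). That count was 6 without the first day 5 array, and 7 without the third of day 5, without the third of day 15 or with the erythroid mean in the model. Glycolysis genes were divided, with 4 of 19 lower, among them the lactate exporter Slc16a3 (by 0.54), and 3 higher, among them Aldoc (by 0.62). Of 20 pro-apoptotic genes, 5 were called lower and none higher, a count that was 3 without the first or the second day 5 array or the third day 15 array, 3 after cyclic loess and 0 with the erythroid mean in the model. The examples were Casp4, an inflammatory caspase, Pmaip1, which encodes NOXA, and Bak1, a pore former of mitochondria, which fell by 0.92, 0.76 and 0.60. Of 12 anti-apoptotic genes, 2 were called lower and none higher. Their median was -0.15, and that of the pro-apoptotic genes was -0.13. No gene of the T cell receptor complex and its signalling (28) or of the Gimap family (8) passed by limma. Of these, 7 and 4 had an unadjusted p under 0.05, against 5028 of all 19938 genes.

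**Figure D2:**
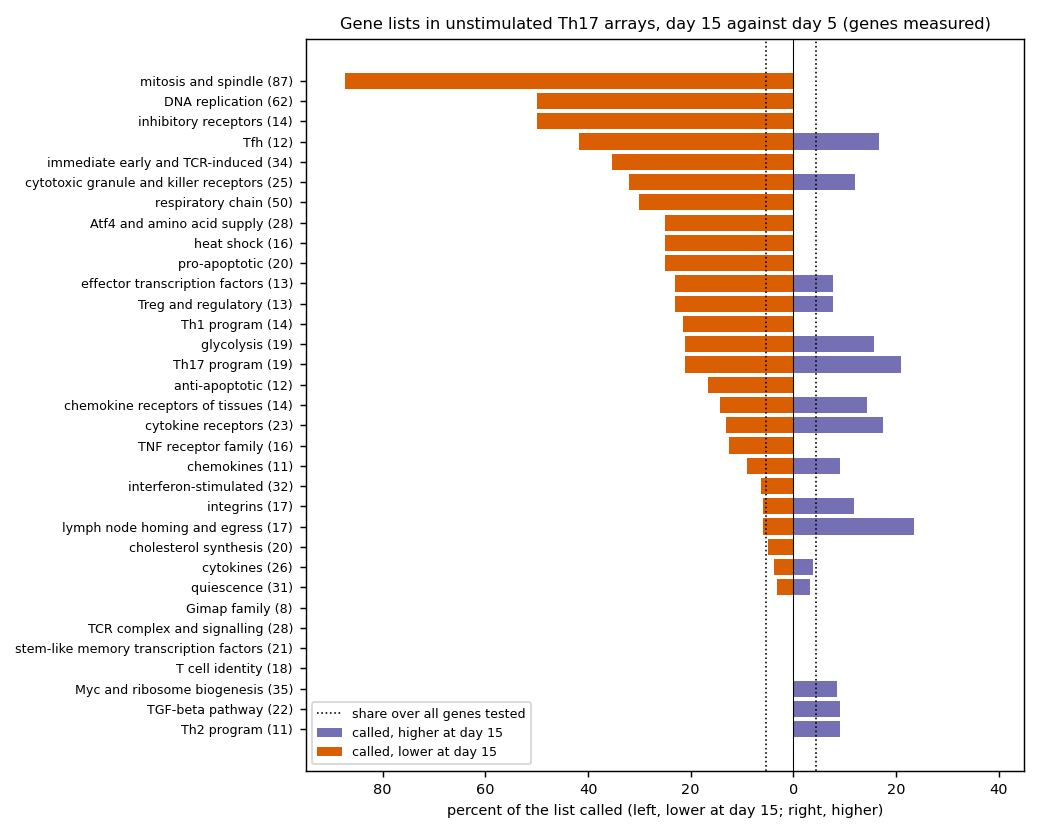
Percent of each gene list called lower (left bars) or higher (right bars) at day 15 than at day 5 in unstimulated Th17 arrays, with the number of genes measured in parentheses and dotted lines for all genes tested (5.28% lower, 4.37% higher). Mitosis (76 of 87), DNA replication (31 of 62) and inhibitory receptor genes (7 of 14) stand furthest to the left.

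Erythroid transcripts, set apart as of host origin by the design of the comparison and not by a test, held the largest rises of all genes. These were the rises of Car1 and Car2. Of 83 erythroid genes, 58 were called higher at day 15 and none lower, with a median of 0.69. Car1, the carbonic anhydrase of red cells (probe set 10497337), read 7.33, 7.11 and 7.21 at day 5 and 12.38, 12.09, 11.66 and 12.19 at day 15, which is 29.1-fold (adjusted p = 6.2e-14). Car2, a second carbonic anhydrase, rose 16.5-fold, Rhag, of the Rhesus complex, 10.3-fold, Slc4a1, the anion exchanger band 3, 10.0-fold, and Kel, the Kell antigen, 8.50-fold. The regulators Gata1 and Klf1 rose 4.25-fold and 3.72-fold, and the haem synthesis gene Alas2 2.52-fold, these 3 having been added after their values were seen. The list mean was 7.36, 7.30 and 7.43 at day 5 and 8.75, 8.54, 8.33 and 8.61 at day 15. It was 8.84 and 8.59 on the day 15 Th1 arrays, so both cell types carried the shift. On the day 0 culture arrays, before any transfer, it was 8.01 (Th17) and 7.86 (Th1), above every day 5 array. The origin of these transcripts was not tested. In the promoters of 62 matched erythroid genes, the GATA word AGATAA was in 17.9% and the Klf1-type word CCACACCC in 3.57% of 84 promoters, against 11.2% and 3.56% of all promoters.

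Granulocyte genes were called in both directions, 10 higher and 14 lower at day 15 of 62. The 10 higher were Mpo, Elane, Prtn3, Ctsg, Mmp9, Mmp25, Ms4a3, Mcpt8, Prg2 and Epx, of which the first 4 encode primary granule proteins of neutrophils, and Mcpt8, Prg2 and Epx encode granule proteins of basophils or eosinophils. Mpo, myeloperoxidase, read 6.65, 6.65 and 6.35 and then 9.96, 10.68, 10.22 and 10.47, a 13.7-fold rise (adjusted p = 6.19e-08). Ctsg, cathepsin G, rose 5.90-fold, and Elane, neutrophil elastase, and Prtn3, proteinase 3, rose 3.73-fold and 3.50-fold. Cd34, an antigen of progenitors, rose by 1.23 (adjusted p = 1.1e-05). Elane, Prtn3 and Cd34 were named after their values were seen. The 14 lower included S100a8, Mmp8, Retnlg, Cxcr2, Lrg1 and Ifitm6. S100a8, a calcium-binding protein of neutrophils, read 10.54, 7.92 and 8.63 at day 5 and 6.46, 7.16, 5.96 and 7.30 at day 15. Mmp8, a neutrophil collagenase, read 9.93, 6.54 and 7.22 and then 5.17, 5.86, 4.93 and 5.81, and Retnlg, Cxcr2, Lrg1 and Ifitm6 were likewise highest on the first day 5 array. The granulocyte list mean was 7.80 on that array, 6.69 and 6.87 on the others of day 5, and 6.64 to 6.97 at day 15. Without that array 6 genes of the list were called lower, and without the second day 5 array 22. Without the first, S100a8 (-1.55) and Cxcr2 (-1.46) kept their calls, while Mmp8 (-1.44), Retnlg (-1.51) and Ifitm6 (-1.19) lost theirs. With the erythroid mean in the model 0 were called lower and 1 higher. The largest fall in the whole table was that of Wfdc17, at 11.60, 8.87 and 10.02 and then 6.08, 6.55, 6.04 and 7.04. It followed the granulocyte mean at day 5 and was named after its values were seen.

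Platelet genes rose in 8 of 17 cases, Ppbp, a platelet chemokine, by 1.83, and 1 fell. The count of 8 was 2 without the first day 5 array, 3 without the third day 15 array, 5 without the second array of either day, and 2 with the erythroid mean in the model. Of 32 macrophage and monocyte genes, 5 were called lower and 1 higher.

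**Figure D3:**
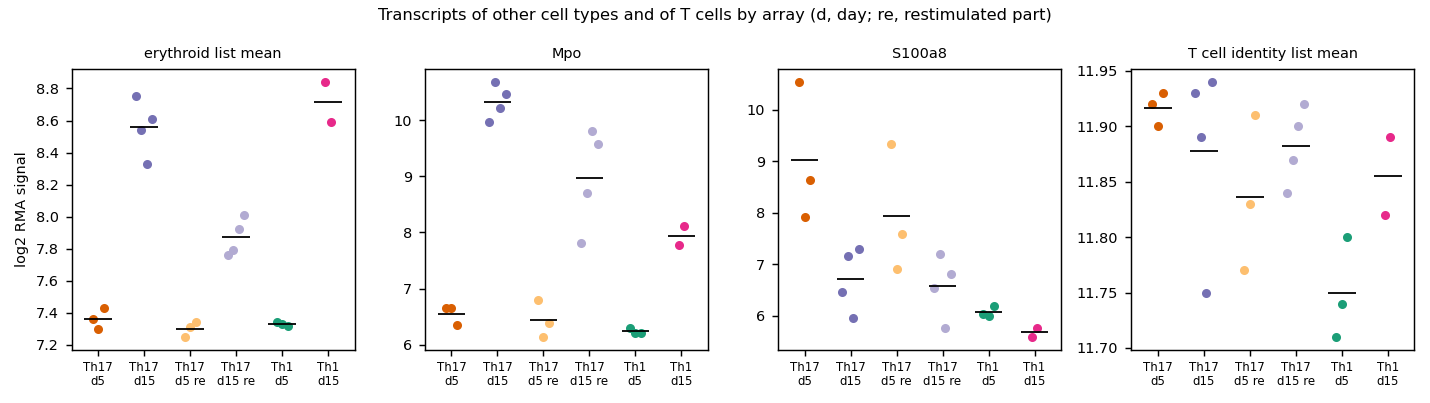
Log2 RMA signal by array in 6 groups for the erythroid list mean, the granulocyte precursor gene Mpo, the neutrophil gene S100a8 and the T cell identity list mean, with lines for group means. The erythroid mean and Mpo are higher at day 15, S100a8 is highest on 1 Th17 day 5 array (10.54), and the T cell identity mean keeps within 11.71 to 11.94 on the arrays shown.

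Xist, the RNA that coats the inactive X chromosome of female cells, was also among the 15 largest rises. That ranking left out host list genes, genes following a host list mean and unnamed clones. It read 5.04 on the day 0 array, 6.95, 6.70 and 6.96 at day 5, and 8.79, 8.69, 8.69 and 9.18 at day 15, a 3.90-fold rise from day 5 (adjusted p = 9.09e-07). The Y-linked genes Eif2s3y, Kdm5d and Uty, named after their values were seen, changed by -0.22, 0.11 and -0.15, none of which passed. They read 9.12 to 9.71, 9.27 to 9.56 and 8.67 to 8.94 over the 7 arrays, and 9.63, 9.05 and 8.85 at day 0. The arrays at both days thus held Y-linked RNA at a like level and Xist at a level that differed. The sex of the donor and host mice was not taken from the labels, and the part of host RNA in the rise of Xist was not tested.

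The restimulated parts of the same Th17 samples gave 2685 called genes (13.5%) between the days, 1006 higher (5.05%) and 1679 lower (8.42%) at day 15. After cyclic loess the split was 1812 higher and 1204 lower. By the labels, restimulated and unstimulated parts came from the same sorted samples. Deviations from the group mean correlated between parts of equal number at 0.39 to 0.48 at day 5, and at 0, 0.21, -0.13 and -0.16 at day 15 (across 9969 genes, which are not independent). Dapl1 rose by 4.19 there, Klrg1 by 1.49 and Klrk1 by 2.32, while Serpinb9b fell by 1.70, Gzmb by 1.53, Tigit by 1.43 and Il23r by 1.17, all called. The change differed between the parts for 234 genes (1.17%), more positive in the restimulated parts for 88 (0.441%) and more negative for 146 (0.732%). After cyclic loess these were 172 and 116. Il17a read 10.31, 10.21 and 10.30 in the restimulated parts at day 5 and 8.93, 6.85, 7.32 and 7.02 at day 15. Its change was lower by 2.36 than in the unstimulated parts (adjusted p = 0.00246). For Il17f the restimulated values were 9.66, 9.99 and 10.18 and then 8.06, 7.19, 7.62 and 7.40 (difference -2.05, adjusted p = 5.76e-05). The late restimulated parts thus lay between their resting level and that of the early ones. Both differences kept their call in each of 14 omissions. Chac1, a target of Atf4, behaved alike, at 10.85, 10.56 and 10.75 and then 8.99, 7.92, 7.99 and 8.10 (difference -2.34, adjusted p = 0.000496).

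Genes of immediate early and heat shock responses differed the other way. Fosb read 10.39, 11.34 and 11.36 in the restimulated parts at day 5 and 12.53, 12.81, 12.16 and 12.39 at day 15, against 9.88, 9.55 and 9.98 and then 9.96, 8.52, 7.55 and 7.71 at rest (difference 2.81, adjusted p = 0.0382). Hspa1a read 10.52, 11.34 and 11.68 and then 12.58, 12.61, 12.47 and 12.52 in the restimulated parts (difference 3.30, adjusted p = 0.0372). These calls were kept in 4 and 5 of 14 omissions. Kit, the stem cell factor receptor, Gja1, a connexin, and Mt2, a metallothionein, rose at rest by 0.90, 0.75 and 1.13 and fell in the restimulated parts by 1.05, 0.94 and 1.57, and these differences kept their call in all omissions. Of the 26 erythroid genes whose change differed between the parts, all rose less in the restimulated ones.

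**Figure D4:**
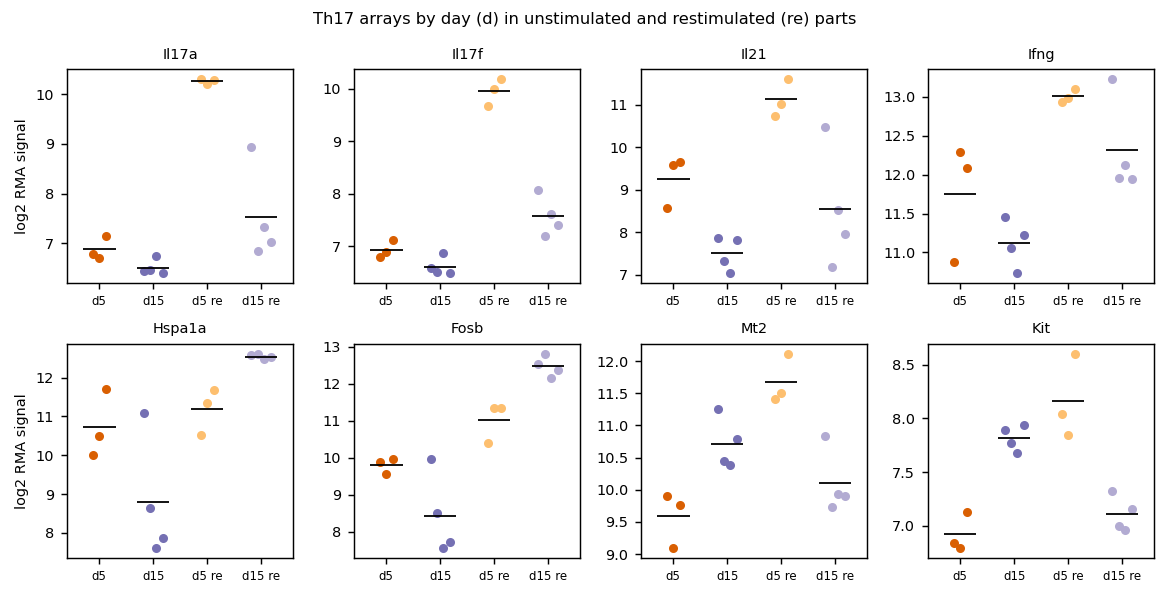
Log2 RMA signal of 8 genes on the Th17 arrays at days 5 and 15 in unstimulated and restimulated parts, with points for arrays and lines for group means. Il17a and Il17f are highest in the restimulated parts of day 5, while Hspa1a and Fosb are highest in those of day 15.

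Unstimulated Th1 cells, from the same design but with other arrays, gave 3201 called genes (16.1%) between the days, 1462 higher (7.33%) and 1739 lower (8.72%) at day 15, or 953 and 3136 with array medians centred. The change differed between Th17 and Th1 cells for 227 genes (1.14%), 115 with a more positive change in Th17 cells (0.577%) and 112 with a more negative one (0.562%). With array medians centred these were 275 and 74 of 349, and without the second day 15 Th1 array only 34 passed. Dapl1 was one that kept its call in each of 12 omissions. It read 6.58, 7.08 and 6.78 and then 7.97 and 8.23 in Th1 cells, and its rise there of 1.29 was smaller by 2.43 (adjusted p = 0.000574). Il23r read 6.0, 5.84 and 5.79 and then 7.03 and 6.31 in Th1 cells, a rise of 0.79 (adjusted p = 0.00418) against its fall in Th17 cells (difference -2.06, adjusted p = 0.00013). The types were thus closer in Il23r at day 15 than at day 5. Rora rose by 1.24 in Th1 cells and by 0.06 in Th17 cells (difference -1.18, adjusted p = 0.000304). Ctla4 read 10.71, 10.60 and 10.53 and then 10.50 and 10.38 in Th1 cells, and its change there of -0.17 did not pass (difference -1.39, adjusted p = 0.00138). These 3 differences kept their call in every omission.

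For Gzmb, Tigit and Gzma the change was more negative in Th17 cells by 1.46, 0.97 and 1.22 (adjusted p = 0.0104, 0.0138 and 0.0137), and each lost its call in 1 of 12 omissions, without a day 15 Th1 array. Foxp3 fell in Th17 cells and rose by 0.89 in Th1 cells, where the values were 9.60, 9.61 and 9.77 and then 9.92 and 11.17 (difference -1.82, adjusted p = 0.0211, kept in 8 omissions). Klrk1 rose more in Th1 cells and Vipr1 and Qpct more in Th17 cells, by differences of -0.99, 0.94 and 1.29, kept in 7, 7 and 10 omissions. Of 8 NK cell genes, 6 were called higher at day 15 on the Th1 arrays, with a median of 0.88. Their list mean there was 5.25, 5.4 and 5.48 at day 5 and 6.30 and 6.42 at day 15. On the Th17 arrays it was 5.32 to 5.41 and then 5.25 to 5.42. The difference between the types was called for 3 of the 8 (median -1.02). The part of NK cell RNA in the Th1 values was not tested. The largest positive difference, 3.70 for Klk1b11, a kallikrein-family gene, came from Th1 cells, which read 8.95, 9.57 and 9.41 and then 5.77 and 6.05, while Th17 cells read 4.98 to 5.83. Mitosis genes fell further in Th1 cells, with 86 of 87 called lower and a median of -1.23. Of the 87, the difference was called for 20, all with the smaller fall in Th17 cells. For inhibitory receptors the Th1 median was -0.16, with 4 lower and 2 higher.

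**Figure D5:**
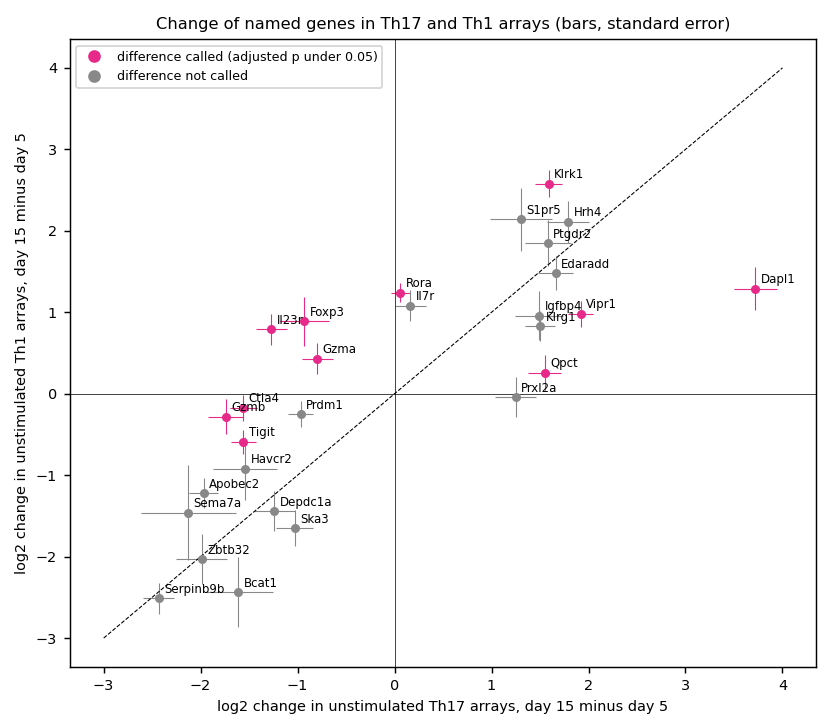
Log2 change from day 5 to day 15 in unstimulated Th17 (x axis) and Th1 (y axis) arrays for 28 named genes, with standard errors as bars, a dashed line of equal change, and colour for a called difference between the cell types. Dapl1 (3.72 against 1.29), Il23r (-1.27 against 0.79) and Ctla4 (-1.56 against -0.17) lie well off the line, while Serpinb9b (-2.43 against -2.51) lies on it.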

How the data were processed

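The deposited values are log2 signals that the authors made with RMA in Affymetrix Expression Console, per the submitters' processing notes, which give no versions. The genome build is not given in the sources used here. Of 35556 probe sets, 21789 had 1 gene symbol, 1621 several and 12146 none. For 999 genes with several probe sets the one with the highest mean was kept, which left 19938 genes. limma 3.58.1 in R 4.3.3 (lmFit, eBayes) was fitted with 1 coefficient per group on the 24 ex vivo arrays (8 groups, 16 residual degrees of freedom), and p-values were adjusted by Benjamini-Hochberg over all genes in each of 5 comparisons. The number of arrays limits the precision. In a test on simulated data for the unstimulated Th17 comparison (19938 genes, 200 changed), 98% of log2 changes of 1 and 100% of changes of 2 were recovered, with 8 false calls. The simulated noise was normal and independent between genes, with no deviating array and no change in cell mixture. These rates thus check the code and do not give the power or error rate in the real arrays.

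The comparison, gene lists and tests were chosen with earlier results of these data known. Named genes are the 15 largest called changes each way without overlap, outside host lists, unnamed clones and genes following a host list mean, a panel of 29 genes, up to 4 called members of each list (8 for erythroid and granulocyte genes) and up to 6 each way per interaction. Lag3, Cd34, Elane, Prtn3, Gata1, Klf1, Alas2, Thy1, Wfdc17, the Y-linked genes, and Gzmk, Prf1, Klrc2, Tmem176a, Tmem176b, Abcb1a, Sh2d1a, Icos and Btla were named after their values were seen. Alternatives covered the arrays in the model, scaling, probe sets, low values, the variance prior, array weights, blocks, host list means as covariates and the omission of each array.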

Additional observations from a re-analysis of the deposited data

Results flagged for a closer look

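Among 172 sets of 4 day 15 values (genes named and list means), 6 held a value far from the other 3, where chance alone gives about 1 in 20. These were S1pr5 on the first array (9.79), Il7r on the second (12.53), and, on the third, Il17a (6.75), Chac1 (8.20), the mean of Myc and ribosome biogenesis genes (9.55) and the mean of cholesterol synthesis genes (9.02).

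The change from day 5 to day 15 differed between unstimulated Th17 and Th1 cells, by limma's interaction test at an adjusted p under 0.05, for the following genes, with the Th17 minus Th1 difference on the log2 scale. It was positive for Klk1b11 (3.70), Dapl1 (2.43), Ctsg (1.57), Prtn3 (1.49), Qpct (1.29), Elane (1.23) and Vipr1 (0.94). Among receptors and regulators it was negative for Il23r (-2.06), Foxp3 (-1.82), Klrc2 (-1.48), Ctla4 (-1.39), Rora (-1.18), Cd69 (-1.03), Klrk1 (-0.99) and Tigit (-0.97). It was also negative for Hspa1a (-3.83), Ppbp (-1.75), Rgs1 (-1.55), Gzmb (-1.46), Gzma (-1.22), Ccl5 (-0.72) and the Y-linked gene Uty (-0.69).

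The change differed between restimulated and unstimulated Th17 parts, by the same kind of test, with the restimulated minus unstimulated difference given. It was positive for Hspa1a (3.30), Fosb (2.81) and Fos (2.37). It was negative for Mt2 (-2.70), Il17a (-2.36), Chac1 (-2.34), Il17f (-2.05), Kit (-1.95), Gja1 (-1.69), Sphk1 (-1.28), Paqr9 (-1.26) and Adgrg1 (-1.17). Among genes described above with the erythroid and granulocyte lists it was negative for Gata1 (-1.32), Ctsg (-1.31), Prtn3 (-1.14), Klf1 (-0.92), Cd34 (-0.89) and Elane (-0.83). The origin of their transcripts was not tested.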

How the results depend on the processing

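The unstimulated Th17 count of 1923 was 1147 with only the groups compared in the model, 3279 with array weights, 788 with the erythroid list mean as a covariate (376 shared with the 1923), 797 with both host means, and 1115 without both parts of the first day 5 sample, the last chosen after seeing the data. Omissions gave 1082 to 2302. The restimulated count of 2685 was 1694 with the erythroid mean and 1657 with both means, and 1570 (without the third day 5 part) to 2867 in omissions. The Th1 count of 3201 was 5059 with only its groups, 4970 with array weights, 1021 with the erythroid mean, 1135 with both, and 1656 (without the second day 15 array) to 2752 in omissions. The count of 227 for Th17 against Th1 was 374 with only its groups, 349 with medians centred, 426 after cyclic loess, 444 after quantile scaling, 345 for genes above the median, 1319 with array weights, 560 with the erythroid mean, 562 with both, and 34 to 357 in omissions. The count of 234 for restimulated against unstimulated parts was 622 with array weights and 117 (without the second day 15 restimulated part) to 350 in omissions. The causes were not tested.

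Scaling moved the share of higher calls for restimulated parts (37.5%) to 60.1% after cyclic loess and 53.3% after quantile scaling, for Th1 cells (45.7%) to 23.3% with medians centred, for Th17 against Th1 (50.7%) to 78.8% with medians centred and 61.9% after quantile scaling, and for restimulated against unstimulated parts (37.6%) to 59.7% and 49.4% after cyclic loess and quantile scaling. Centring moved the median of all genes to 0.15 for Th17 against Th1. In the unstimulated Th17 comparison (45.3%) these 3 scalings gave 42.3% to 48.3%, while genes above the median gave 31.8% and the erythroid mean 18.4% (145 higher, 643 lower).

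Equal replicate numbers did not pair the Th17 arrays of days 5 and 15, whose deviations correlated at 0.20, -0.15 and 0.18. With the replicate number as a block the counts were 2666, 2589, 2397, 201 and 212, in the order above.

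Of 2731 values of 131 named genes under other settings, 2409 kept their direction and side of the threshold. The 16 that reversed all had the erythroid mean in the model, which itself differs between the days without overlap: with that mean and with both means, Paqr9 was -0.07 and -0.10, Sphk1 -0.24 and -0.27, Rhag -0.75 and -0.74, Cxcr6 -0.27 and -0.39, Nrp1 -0.51 and -0.53, Tmem176a -0.34 and -0.29, Mt2 -0.45 and -0.44, and Foxp3 0.81 and 0.95.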

Other observations

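The single unstimulated Th17 array of day 0, which entered no comparison, read high for several genes that were low at day 5. Kit read 11.50 there, Cd34 11.01, Adgrg1 11.42, Ppbp 11.58 and Gata1 9.27, against 6.79 to 7.13, 5.52 to 5.94, 6.82 to 7.14, 4.97 to 5.71 and 6.43 to 6.54 on the 3 day 5 arrays. On the same array, taken before transfer, the list means were 8.01 (erythroid), 7.89 (granulocyte) and 8.60 (platelet). These are values of 1 array, with no test.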
